A study of Bos taurus with 20 samples.

Results

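The genes described here were chosen for a level that was highest at 72 h in low serum and lower again at 96 h, in cultures of bovine satellite cells, the stem cells of skeletal muscle. They number 54 of the 14636 genes that passed a filter on low counts (0.369%), out of 27607 genes in the table. The cells came from the Belgian Blue breed and were grown on collagen with 20% fetal bovine serum (FBS). They were then moved to a differentiation medium with 2% FBS, and polyA RNA was sequenced before the change (0 h) and at 24, 48, 72 and 96 h. Each time point had 4 replicates, of which A and B are labelled batch 1 and C and D batch 2, which gives 20 libraries. The labels do not say what a batch was, or how many animals gave the cells, and call the replicates biological, so the p-values below measure the spread between these cultures.

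The members were chosen by the time means of CPM, the counts of a gene scaled to a fixed library total, on TMM-scaled library sizes, with 0.1 CPM added to each mean. A gene had to have at least 1 count at 0 h and its highest mean at 72 h. That mean had to be at least 2 CPM, at least 2 times the 0 h mean and at least 1.7 times the 96 h mean. The 24 h mean had to be under 2 times the 96 h mean, and the 0 h mean under 2 times the 24 h mean. A gene already above its 96 h level at 24 h could thus still be chosen. All 5 time means of all 20 libraries entered this choice, so the levels of the members over time are described without a test. Tests are given only on replicates or measures that the choice of genes did not use. The rule itself was set with earlier results of these data known.

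Withdrawal of serum makes satellite cells leave the cell cycle, switch on the myogenic transcription factors, fuse into multinucleated myotubes and build the contractile apparatus. Some genes act only during a passage of this program, others stay on in the mature fibre. Genes in the table carry Ensembl cattle identifiers alone, and the gene table at hand paired 0 of them with a symbol. The members are therefore named by identifier, and neither their functions and sequences nor the markers of satellite cells and other cell types are given here.

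Together the members took up a small part of the transcriptome that was largest at 72 h. At 0 h their summed level was 215 ± 6.17 CPM, and it was 580 ± 83.8 CPM at 24 h and 1431 ± 157 CPM by 48 h. The sum reached 1984 ± 189 CPM at 72 h, while 96 h gave 1013 ± 144 CPM (SD over 4 libraries each). The level at 96 h thus lay between those at 24 h and 48 h. In libraries from whole cultures, fewer cells of a type and less RNA per cell cannot be told apart. One gene, ENSBTAG00000013347, made up between 35.1% and 43.4% of the sum at 72 h. Without it the sum ran from 1119 to 1277 CPM in the 4 libraries at 72 h and from 532 to 688 CPM in those at 96 h, so the same order held for the other members together.

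**Figure D1:**
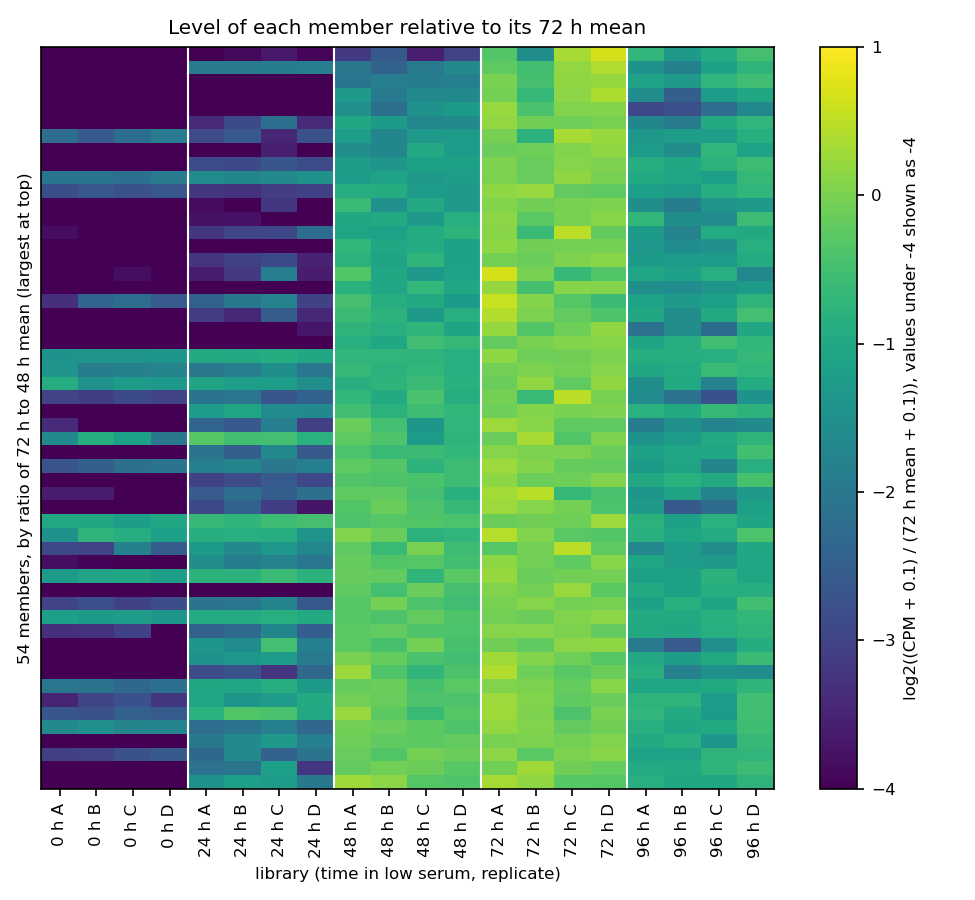
Each row is 1 of the 54 members and each column 1 of the 20 libraries. Colour gives the level relative to the member's own 72 h mean on a log2 scale, with rows ordered by the ratio of the 72 h to the 48 h mean. The 72 h columns are the brightest, and the rows differ mainly in how bright 48 h and how dark 0 h is.

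The members differed widely in how far they stood above growing cells. The ratio of the 72 h to the 0 h mean ran from 2.04 to 656 with a median of 19.03, and it was at least 10 for 33 members. In 37 members the 0 h level was under 1 CPM, and the added 0.1 CPM holds their ratios down. The other 17 were already present at 1 CPM or more, with a median ratio of 4.17 against 20.3 for the 37. The 0 h level that split the members is also the denominator of this ratio, so part of the difference is built in. The 17 were also more abundant at the high point, with a median of 46.6 CPM at 72 h against 4.79 CPM. The rise that the rule required ties the 72 h level to that of 0 h as well. Of all members, 30 had a 72 h mean under 10 CPM, 15 had 10 to under 50 CPM and 9 had 50 CPM or more.

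Levels at 96 h were lower by a narrower range of factors. The ratio of the 72 h to the 96 h mean ran from 1.72 to 4.96 with a median of 2.01, and 6 members passed 3. The nearest gene outside the limit, with all other criteria met, had a ratio of 1.68, and 45 such genes lay between 1.5 and 1.7, so the limit cut through a continuous range. On the rise the members nearest to the limit stood at 2.04 inside and 1.98 outside, and on the 72 h level, with 0.1 CPM added, at 2.14 and 1.99 CPM. At 96 h 45 of 54 members still had at least 2 times the 0 h mean, but 36 of these were under 1 CPM at 0 h. Of the 17 members at 1 CPM or more at 0 h, 8 had less than 2 times their 0 h mean at 96 h. All 4 libraries at 96 h lay above all 4 at 0 h for 49 members, where 36.8% of all filtered genes did so. The choice used the 0 h and 96 h means, so nothing is read from that comparison. The lowest ratio of the 96 h to the 0 h mean was 0.979, and it was under 1 for 1 member. All 4 libraries at 72 h lay above all 4 at 96 h for 53 members. Over all filtered genes that share was 13.8%, and since the choice used this difference nothing is read from the comparison.

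**Figure D2:**
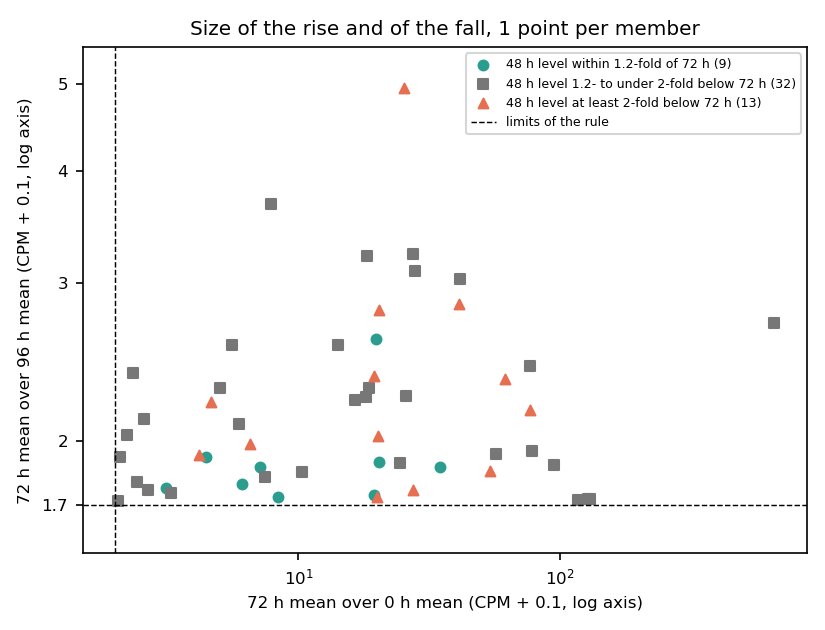
Each point is 1 member, placed by the ratio of its 72 h to its 0 h mean and of its 72 h to its 96 h mean, both on log axes, and marked by its 48 h level. Ratios to 0 h spread from 2.04 to 656. Those to 96 h run from 1.72 to 4.96 with a median of 2.01, and 27 members lie between the limit of 1.7 and 2.

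Most members gained more on the second day than on the third. With 0.1 CPM added to the means, the largest log2 step fell between 24 h and 48 h for 33 members, on the first day for 17 and on the third for 4. The median step of the members was 1.36 on the first day, 1.58 on the second, 0.62 on the third and -1.005 on the last (log2 of the means plus 0.1 CPM). In the edgeR fits, which do not add 0.1 CPM to the means, the medians were 1.98 on the first day and 1.71 on the second. Which of the first 2 days held the larger gain thus depends on the measure. At 48 h, 9 members were already within 1.2 times of their 72 h mean, 32 were between 1.2 and 2 times below it, and 13 were at least 2 times below it. The 4 libraries at 72 h lay above the 4 at 48 h for 32 members, where 15.4% of all filtered genes did so, and the choice had already required a higher mean. In 44 members the 96 h mean was below the 48 h mean. On the first day 31 members reached at least 2 times their 0 h mean and 6 had a lower mean at 24 h than at 0 h.

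ENSBTAG00000020080 had the largest ratio of 72 h to 96 h among members of at least 10 CPM. Its level was 0.0845, 0.192, 0.168 and 0.0366 CPM in replicates A to D at 0 h and 2.40, 2.77, 4.99 and 2.84 CPM at 24 h. It was 82.0, 69.3, 89.9 and 72.2 CPM at 48 h and then 167, 104, 155 and 152 CPM at 72 h. At 96 h it was 50.6, 49.0, 54.1 and 59.5 CPM, so the libraries of 72 h and 96 h did not overlap and replicate B was the lowest at 72 h. The log2 change from 72 h to 96 h was -1.44 with a standard error (SE) of 0.14, and that from 0 h to 72 h was 10.07 with an SE of 0.27 from a 0 h level of 18 counts in all. By day the log2 change was 4.58 (SE 0.40) on the first, 4.61 (SE 0.18) on the second and 0.88 (SE 0.14) on the third.

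ENSBTAG00000048353 followed a like course at a lower level. Its means were 0.210 ± 0.0946, 1.10 ± 0.199 and 12.5 ± 1.68 CPM at 0, 24 and 48 h (SD, n = 4 each). The 4 libraries at 72 h held 26.5, 22.3, 23.1 and 23.1 CPM and those at 96 h 9.32, 7.97, 8.56 and 13.0 CPM. The groups did not overlap, and replicate D stood above the other libraries of 96 h. The log2 change from 72 h to 96 h was -1.28 (SE 0.13).

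ENSBTAG00000019137 and ENSBTAG00000011882 had the largest ratios of 72 h to 0 h after ENSBTAG00000020080. ENSBTAG00000019137 had 6 counts in the 4 libraries at 0 h and reached 7.15 ± 1.40 CPM at 24 h, 11.7 ± 0.971 CPM by 48 h and 18.3 ± 0.925 CPM by 72 h (SD, n = 4 each). Most of its log2 gain lay on the first day, 7.25 (SE 0.26), with 0.71 (SE 0.12) on the second and 0.65 (SE 0.11) on the third. At 96 h it held 10.5, 9.41, 11.7 and 10.7 CPM in replicates A to D, all below the 17.1, 19.2, 18.2 and 18.8 CPM of 72 h.

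For ENSBTAG00000011882 the means were 0.154 ± 0.107, 4.46 ± 0.622 and 24.1 ± 1.31 CPM at 0, 24 and 48 h (SD, n = 4 each). It held 35.9, 29.9, 30.2 and 33.5 CPM in replicates A to D at 72 h and 16.4, 18.5, 16.5 and 23.5 CPM at 96 h. Again no library of 96 h reached the 72 h range, and replicate D was the highest of 96 h. Its log2 change on the last day was -0.79 (SE 0.12), as was that of ENSBTAG00000019137 (SE 0.11).

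ENSBTAG00000013347, singled out as the most abundant member, was expressed at 32.7 ± 8.65 CPM in growing cells and reached 288 ± 58.0 CPM on the first day (SD, n = 4 each). At 48 h its libraries held 788, 702, 590 and 564 CPM and at 72 h 978, 843, 740 and 639 CPM. These overlapped, since replicates C and D at 72 h stood below replicate A at 48 h, and the log2 change from 48 h to 72 h was 0.27 with an SE of 0.20. At 96 h it held 406, 348, 410 and 530 CPM, below every library of 72 h and of 48 h. The last-day log2 change was -0.91 (SE 0.20) over all libraries, -1.27 in batch 1 alone and -0.56 in batch 2 alone.

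**Figure D3:**
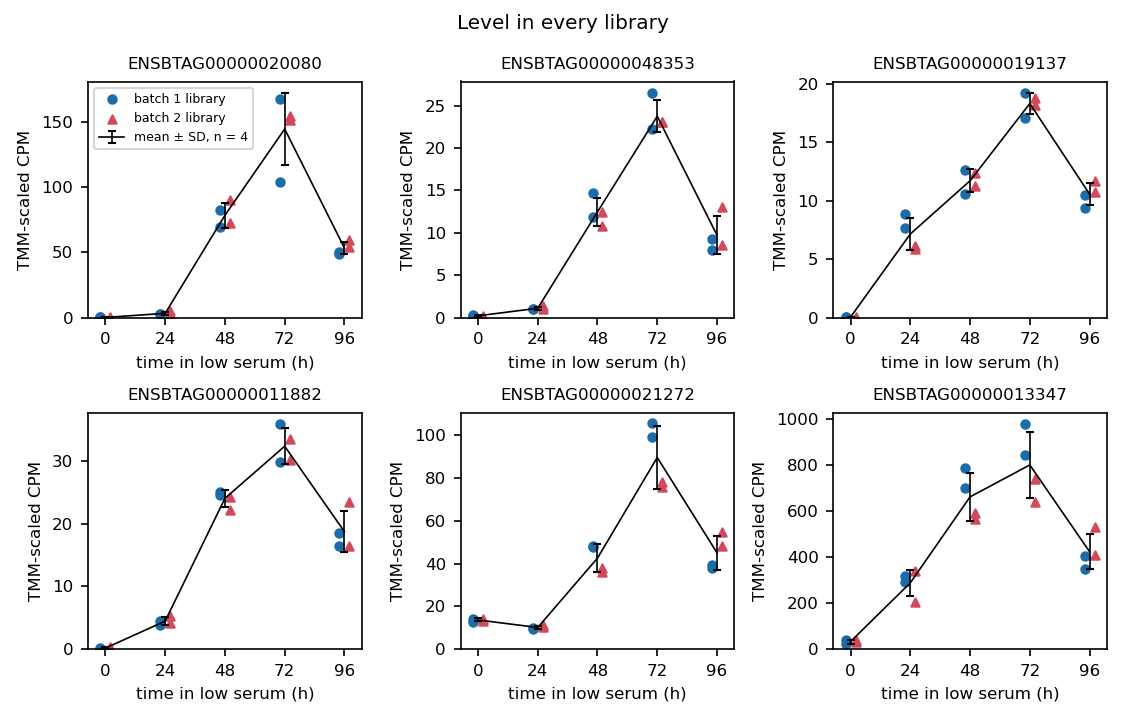
Each panel shows 1 gene, with time in low serum on the horizontal and TMM-scaled CPM on the vertical axis, which starts at 0. Points are libraries (circles batch 1, triangles batch 2) and the line joins means ± SD (n = 4). In all 6 genes the 4 libraries at 96 h lie below the 4 at 72 h, and in ENSBTAG00000021272 the batches change order between 72 h and 96 h.

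Whether the high at 72 h appears in cultures that did not enter the choice of genes was asked across batches. Genes were chosen with the same rule in one batch and tested in the other. Since the rule was set with earlier results of these data known, only the choice of genes left the tested batch out. In batch 1 alone the rule chose 101 genes, of which 51 are members. In batch 2, 49 of these 101 genes (48.5%) fell between 72 h and 96 h (edgeR quasi-likelihood test, adjusted p under 0.05), where 8.33% of all genes tested fell. Lower values were found for 92 of the 101 and higher values for 9. The median log2 change of the 101 was -0.64 in batch 2, with a range of -2.17 to 0.34, against 0.01 over all genes and -1.01 in the batch that chose them. The count rested on 2 libraries per time. With 1 library left out, that time point has a single library, which is assumed to vary like the libraries of the other time points, so these counts come from a smaller design. The count was 31 without replicate C at 72 h, 20 without replicate D at 72 h, 26 without replicate C at 96 h and 45 without replicate D at 96 h. It was 30 in a test against a minimum of 1.2-fold.

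In batch 2 alone the rule chose 39 genes, of which 26 are members. In batch 1, 31 of them (79.5%) fell on the last day (edgeR, adjusted p under 0.05), where 15.1% of all genes tested did, and 37 of 39 had lower values. Their median log2 change in batch 1 was -1.10, with a range of -2.98 to 0.22, close to the -1.06 of the batch that chose them. With a list chosen in batch 2 without replicate D at 96 h, an alternative taken up after the data were seen, 49 of 61 genes fell in batch 1. In neither direction did a chosen gene rise past the threshold on the last day.

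**Figure D4:**
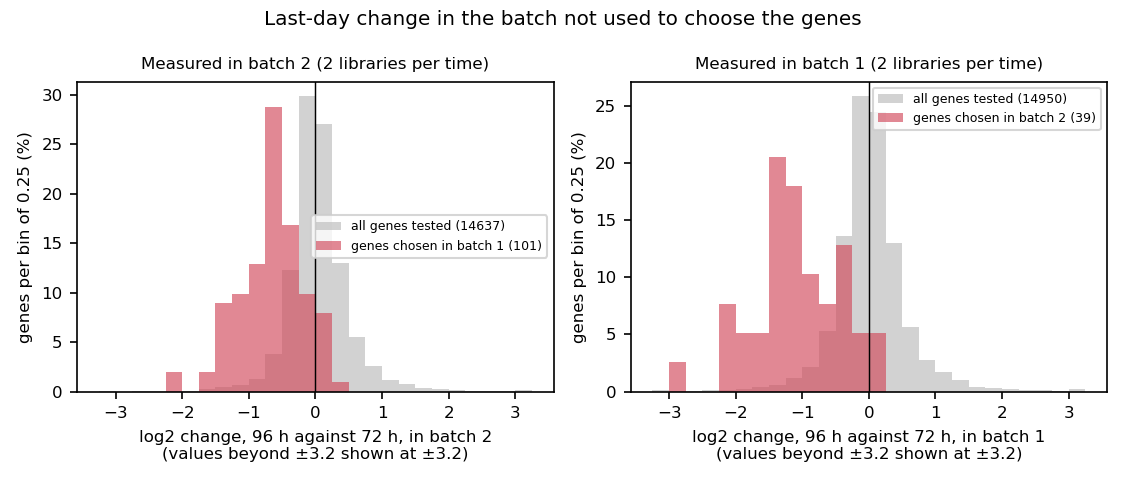
Histograms of the log2 change from 72 h to 96 h in batch 2 for the 101 genes chosen in batch 1 (left) and in batch 1 for the 39 genes chosen in batch 2 (right), each as a percentage of its group, over all genes tested in grey. The chosen genes are centred on -0.64 and -1.10, and all genes on 0.01 and 0.00.

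The rise was found again in nearly all of these genes. Between 0 h and 72 h, 95 of the 101 genes chosen in batch 1 rose in batch 2 (edgeR, adjusted p under 0.05), where 36% of all genes tested rose, with a median log2 change of 3.38. In the reverse direction 39 of 39 rose in batch 1, where 37.2% of all genes did, with a median of 4.51. The third day was less clear. Between 48 h and 72 h, 40 of 101 rose in batch 2 against 13.2% of all genes, and 20 of 39 rose in batch 1 against 12.3%, with median log2 changes of 0.49 and 0.51. The first count was 23 without replicate D at 48 h, and the second 13 without replicate A and 12 without replicate B at 48 h, again with a single library left at that time. In batch 2 the highest mean of 84 of the 101 genes was that of 72 h, where 17.7% of all filtered genes were highest then. Of the rest, 9 were highest at 48 h and 4 at 96 h, while 3 had their highest mean before the change of medium and 1 after the first day. In batch 1 it was that of 72 h for 35 of the 39, where 15.9% of all filtered genes were.

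The lists from the 2 batches shared 24 genes, 23.8% of the list from batch 1 and 61.5% of that from batch 2, and all 24 are members. Of the other members 27 met the rule in batch 1 alone, 2 in batch 2 alone and 1 only when the batches were averaged. Of the 77 genes that met the rule in batch 1 and not in batch 2, 68 missed the limit on the fall, 47 of them that limit alone, while 17 were not highest at 72 h and 9 missed the limit on the rise. ENSBTAG00000020080 and ENSBTAG00000048353 met the rule in each batch, while ENSBTAG00000019137, ENSBTAG00000011882, ENSBTAG00000013347 and ENSBTAG00000021272 met it in batch 1 only.

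The shallower 96 h levels in batch 2 were uneven between its libraries. Relative to the 72 h mean of its own batch, the median member had a log2 level of -1.03 in replicate A, -1.12 in replicate B, -0.92 in replicate C and -0.75 in replicate D at 96 h. Replicate D was the highest of the 4 libraries at 96 h for 42 of 54 members, and for 27.1% of all filtered genes. Its members lay a median of 0.27 above their 96 h means on the log2 scale, with 50 of 54 above, while the median over all filtered genes was 0.01. The same library had also moved less than replicate C in the other genes. Regression slopes were taken along the last-day change of the other batch, over all filtered genes that are no members. A slope of 0 is the 72 h level of the own batch. Along the change of batch 1, replicate D at 96 h had a slope of 0.438 and replicate C one of 0.719. Along the change of batch 2, replicate B had a slope of 0.774 and replicate A one of 0.854. Slopes from different batches are not on one scale. The part of replicate D at 96 h in the results was not tested beyond leaving it out, which gave 68 genes by the rule, the 54 members among them.

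**Figure D5:**
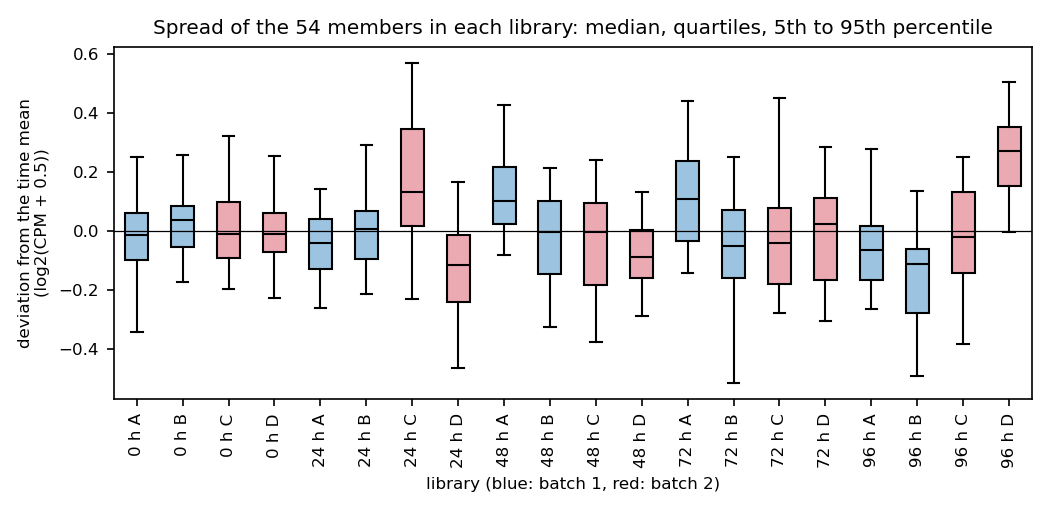
Boxes show, for each of the 20 libraries, how far the 54 members lay from their mean at that time (log2 of CPM plus 0.5), with the median, quartiles and whiskers from the 5th to the 95th percentile. Replicate D at 96 h lies highest, with a median of 0.27, followed by replicate C at 24 h with 0.13 and replicate A at 72 h with 0.11.

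The spread between replicates, on which the rule set no limit, had a larger median for members than over all filtered genes at each of the 5 time points. The rule chose by means of the same libraries, so the spread is described without a test. The median coefficient of variation was 35.3% at 0 h against 9.27% over all filtered genes, 22.5% against 8.78% at 24 h and 14.2% against 9.96% at 48 h. At 72 h it was 15.1% against 11.1%, and at 96 h 19.9% against 9.16%. Low counts widen such values, and 37 members were under 1 CPM at 0 h and 30 under 10 CPM at 72 h. Among the 24 members at 10 CPM or more at 72 h the medians were 9.51% at 72 h and 14.9% at 96 h. Over the 8936 genes at such a 72 h level the medians were 8.52% and 6.89%. At 96 h the levels are not matched, since the rule took only genes at least 1.7 times lower then. The 96 h values also include replicate D, the highest of the 4 libraries for 42 of 54 members.

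The level averaged over time differed between the batches for 6 of the 54 members (edgeR test of the batch term, adjusted p under 0.05), of which 5 were higher in batch 2, where 19.2% of all genes differed. The count was 1 without replicate B, 1 without replicate C and 4 without either of the others. The median difference between batch 2 and batch 1 was 0.01 on the log2 scale.

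The last-day change was smaller in batch 2 for 46 of 54 members (85.2%), with a median difference of 0.28 on the log2 scale. Of the 357 other genes at least 1.7-fold lower at 96 h over all libraries, 64.7% had a smaller change in batch 2, with a median difference of 0.29, and of all 7204 genes lower at 96 h it was 53.8%. Gene by gene the difference passed the test for 1 member (edgeR test of the last-day change by batch, adjusted p under 0.05), where 0.0205% of all genes, 3 in number, passed. At an unadjusted p under 0.05 it was 7 of 54 members, where 15% of all genes passed. That member was ENSBTAG00000021272, singled out for this value. It was also the only gene to pass the test of the whole time course by batch (edgeR, adjusted p under 0.05). That was 1 of 54 members, where 0.00683% of all genes passed. Unadjusted, 4 of 54 members passed this test, where 9.72% of all genes did.

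ENSBTAG00000021272 was lower at 24 h than in growing cells, with no overlap of the libraries. It held 12.9, 14.2, 13.2 and 14.2 CPM in replicates A to D at 0 h and 9.78, 9.17, 10.4 and 11.1 CPM at 24 h. At 48 h the libraries of batch 1 held 48.4 and 48.0 CPM and those of batch 2 38.1 and 35.9 CPM. At 72 h batch 1 was again higher, with 99.1 and 106 CPM against 78.0 and 75.95 CPM, and at 96 h it was lower, with 39.4 and 37.8 CPM against 48.3 and 54.8 CPM. The last-day log2 change was -1.41 in batch 1 and -0.58 in batch 2, and the difference of 0.83 had an edgeR adjusted p of 0.00725. This call was lost in 3 of the 4 omissions of a replicate, those of A, B and D, which leave a single library per time in a batch. The edgeR adjusted p was 0.0285 with the replicate letter as a block. It lay between 2.63e-06 and 0.0115 under the other scalings and without the low-count filter, and DESeq2 gave an adjusted p of 1.34e-06. For the whole time course the edgeR adjusted p was 0.0212. It was 1.00 without replicate A, 0.208 without replicate B, 0.456 without replicate D and 0.0951 with the replicate letter as a block, and as low as 1.04e-07 without the low-count filter, so the call did not hold in every setting.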

How the data were processed

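The authors deposited raw counts of reads by gene. Build bosTau9, STAR 2.7 and featureCounts are named in the submitters' processing notes. Parameters, strand setting and annotation: not given in the sources used here. Libraries came from a stranded mRNA kit with reads of 75 bp, per the labels' protocols. Total counts ran from 21100797 to 41998509 per library, so members of a few CPM rest on few counts at 0 h.

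Analysis used R 4.3.3, edgeR 4.0.16 and, as an alternative, DESeq2 1.42.0. Genes were kept by filterByExpr (minimum count 10, minimum total 15) and library sizes scaled by TMM. Quasi-likelihood F-tests were two-sided with Benjamini-Hochberg adjustment over all filtered genes and a threshold of 0.05. Fits over 20 libraries had terms for time and batch, and those within a batch (10 libraries) a term for time, with filter and scaling made anew. Log2 changes with SE come from these fits. The members, the rule and the gene lists were chosen with earlier results of these data known, and the lists could not be used without symbols. Genes are named by a rule: at 72 h at least 10 CPM, the first 2 by the ratio of 72 h to 96 h and the next 2 by that of 72 h to 0 h. ENSBTAG00000013347 and ENSBTAG00000021272 were chosen after their values were seen. Other scalings, filters, tools and the omission of libraries were tried as alternatives.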

Additional observations from a re-analysis of the deposited data

Results flagged for a closer look

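For ENSBTAG00000021272 the 2 batches had different time courses, with an edgeR adjusted p of 0.0212 for the batch by time terms. Dixon's test was applied to 40 sets of 4 replicate values, of which 2 held a value far from the rest, and chance gives about 1 in 20. Replicate C at 24 h held 4.99 CPM of ENSBTAG00000020080, while the other libraries held 2.40 to 2.84 CPM. The median deviation of the members from their 0 h means was 0.0352 on the log2 scale in replicate B and lay between -0.0151 and -0.00992 in the others.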

How the results depend on the processing

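The leaving out of single libraries of 72 h and 96 h from the rule, and of replicate D at 96 h from the choice in batch 2, was added after the data were seen. Of 110 alternative counts 86 stayed within 1.5 times the reported count. The rule gave 27 genes with a fall of at least 2 times, 99 with 1.5 times and 101 in batch 1 alone. Under library sizes alone it gave 57 genes, 46 of them members. The median log2 change of all genes from 0 h to 72 h was then -0.30, against -0.02 with TMM. All 54 members were still higher at 72 h. A minimum of 1.2-fold gave 30 falls in batch 2. Without single libraries these were 20 to 45, and rises on the third day were 23 to 31 in batch 2 and 12 to 20 in batch 1. With the list chosen without replicate D at 96 h, 49 genes fell and 61 rose in batch 1. Without the low-count filter 14 members differed in level between batches, 8 in time course and 8 in last-day change. Without single replicates these were 1 to 4, 0 to 1 and 0 to 1. The cause was not tested. The letters were not taken as pairs: deviations of same-letter libraries had a median correlation of 0.222 (-0.472 to 0.664), with 22 of 40 over 0.1. With a replicate block 0 members differed in time course, 1 in last-day change, and 47 and 31 chosen genes fell in batches 2 and 1. The 6 named genes kept their direction in 84 of 84 values, which their choice nearly fixed, while the size was classed as moved in 14 of these. Members of few counts at 0 h have no firm fold, and 2 libraries per time limit the tests within a batch.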
